A study of Mus musculus with 2 samples.

Results

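Of the 3258 genes that the authors named in a list of BUD31 peaks, 6 are described here: Kit, Taf4b, Etv5, Sox3, Esx1 and Rhox13, which act in the self-renewal or the differentiation of spermatogonia. They were chosen by symbol from genes that had a peak in that list, and together they carry 16 of its 16331 peaks. RNA recovered with an anti-BUD31 antibody (1 library) was set against input RNA, 10% of the total RNA (1 library). Both came from germ cells of the testis of C57BL/6J mice at postnatal day 14, freed by enzymatic digestion. This assay, RNA immunoprecipitation sequencing (RIP-seq), recovers the RNAs that a protein is bound to, directly or in a complex, and BUD31 is a protein of the spliceosome. The labels do not say how many animals were pooled. With 1 library per group there was no replicate check and no test, and the list has no read count, so the depth is unknown. A peak is a stretch of the mm10 genome given by its first and last base, and it carries no strand, fold or score.

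Spermatogonia are the mitotic germ cells of the testis. The stem cell pool divides under growth factor signals from Sertoli cells, such as GDNF and FGF, to which the ETS factor ETV5 responds, and TAF4B and SOX3 act in the undifferentiated cells and their early progeny. Retinoic acid then starts differentiation, in which the cells gain KIT, the receptor of stem cell factor, and the homeobox proteins ESX1 and RHOX13. At postnatal day 14 the testis holds spermatogonia together with the first germ cells in meiotic prophase.

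To show where transcription starts relative to the peaks, the 250 bases before an annotated start are given for 3 of the genes and for Gm39506, a long noncoding RNA gene that lies over Rhox13. They are from RefSeq (build GRCm38.p6, the mm10 assembly) and read 5′ to 3′ on the strand of the gene. Capitals mark bases inside a peak. Start windows were found for 4 of the 6 genes: Kit, Etv5, Esx1 and Rhox13. The Esx1 stretch is chrX:137120327-137120576 on the minus strand, that of Gm39506 is chrX:38158423-38158672 on the minus strand, that of Rhox13 is chrX:38120590-38120839 on the plus strand, and that of Kit is chr5:75574737-75574986 on the plus strand.
Esx1: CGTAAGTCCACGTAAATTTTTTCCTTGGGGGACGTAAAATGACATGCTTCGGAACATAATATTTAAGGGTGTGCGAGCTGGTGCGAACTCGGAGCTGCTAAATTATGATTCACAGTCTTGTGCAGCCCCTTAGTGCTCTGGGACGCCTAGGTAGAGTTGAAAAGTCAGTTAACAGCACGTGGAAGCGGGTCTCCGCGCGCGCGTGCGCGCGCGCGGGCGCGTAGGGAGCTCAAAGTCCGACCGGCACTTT
Gm39506: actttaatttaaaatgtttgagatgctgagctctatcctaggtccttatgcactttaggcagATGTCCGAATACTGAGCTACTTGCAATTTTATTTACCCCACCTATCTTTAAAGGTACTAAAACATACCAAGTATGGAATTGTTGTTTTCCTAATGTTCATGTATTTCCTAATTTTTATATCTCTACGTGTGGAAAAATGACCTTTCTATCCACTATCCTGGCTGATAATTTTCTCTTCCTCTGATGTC
Rhox13: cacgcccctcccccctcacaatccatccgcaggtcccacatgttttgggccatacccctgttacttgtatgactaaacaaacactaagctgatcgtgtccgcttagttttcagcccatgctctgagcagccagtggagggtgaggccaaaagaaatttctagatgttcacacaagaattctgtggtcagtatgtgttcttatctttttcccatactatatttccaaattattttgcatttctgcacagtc
Kit: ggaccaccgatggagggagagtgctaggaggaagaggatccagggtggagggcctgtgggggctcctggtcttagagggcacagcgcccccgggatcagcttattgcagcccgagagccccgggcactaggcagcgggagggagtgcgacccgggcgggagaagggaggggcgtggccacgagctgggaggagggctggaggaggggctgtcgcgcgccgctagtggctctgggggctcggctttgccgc

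All 250 bases lay inside a peak for Esx1 and 188 of the 250 did for Gm39506, against none for Rhox13 and Kit. With 50 bases after the start included, a window of 300 bases, the Esx1 window was covered whole. On chromosomes with a peak 346 of 21757 such windows were covered whole (1.59%), and on the X chromosome 126 of 1223 (10.3%). The nearest peak lay 1564 bp beyond the Kit window and 2301 bp beyond the Rhox13 window, in each case inside the gene. For Etv5, with 2 annotated starts, it lay 6920 bp and 5718 bp away. The letters GTAAGT, the consensus of a 5′ splice site, were searched on both strands. They stand once in the Esx1 window, at base 2 of the printed sequence, on neither strand of the other 3 genes' windows, and on either strand in 7.65% of all 32851 windows. A match of these letters is a description only.

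The 16 peaks were 12 of the intron class (75%, against 81.8% of all peaks), 2 of the exon class, 1 of the 3′ UTR class and 1 of the intergenic class, by the authors' annotation. They were 800 to 39400 bp wide (median 2150 bp), against 200 to 60260 bp for all peaks (median 1400 bp). Positions on a chromosome are given in steps of a bin, which was 200 bp on the autosomes of these genes and 230 bp on the X chromosome. All 16 spanned more than 1 bin, whereas 2105 of all peaks (12.9%) were 1 bin of their own chromosome wide. Taf4b alone held 76.6% of the summed width of 100540 bp. Another gene of the reference table lay under all or a part of 4 of the 16 peaks. Without a strand the shared stretch of these peaks cannot be assigned to either gene. A peak was assigned to a gene by the authors' annotation, and its overlap with the gene was measured on the gene's extent in the reference table.

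**Figure D1:**
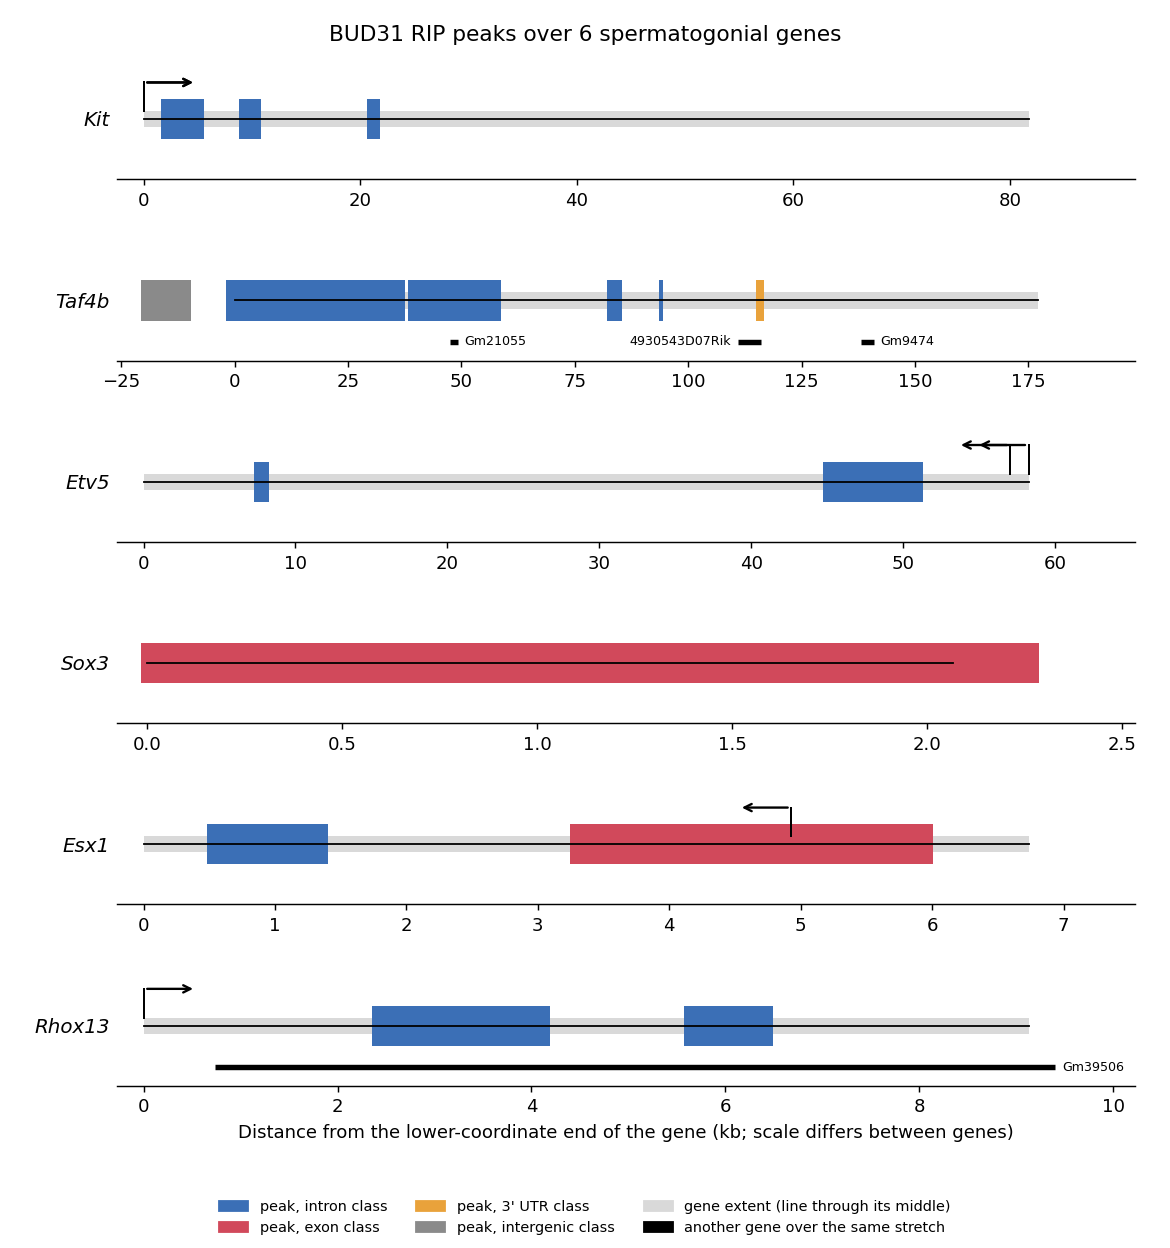
Positions of the peaks along the 6 genes, in kb from the lower-coordinate end of each gene, with a scale of its own per gene. Blocks are peaks coloured by the authors' class, the grey bar is the gene, black bars below it are other genes over the same stretch, and bent arrows are annotated starts where the reference gives one. The 3 Kit peaks lie in the part next to its start, the Sox3 peak spans the gene, and both Rhox13 peaks lie over Gm39506.

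Among the genes of undifferentiated spermatogonia, Taf4b had the most peaks. TAF4B is a gonad-enriched subunit of the general transcription factor TFIID that maintains spermatogenesis. Its 6 peaks covered 36.2% of the gene, which runs from 14783201 to 14960424 on chromosome 18 (177 kb). An intron peak of 39400 bp at 14781401 to 14820800 starts 1800 bp before the gene and was the 11th widest of all 16331 peaks and the 5th widest of the 931 on its chromosome. A second intron peak, of 20600 bp, follows it after a gap of 600 bp and ranked 114th of all. The remaining peaks inside the gene were narrower than these: intron peaks of 3400 and 800 bp and a peak of 1800 bp of the 3′ UTR class at 14898201 to 14900000. Beyond that last peak 60.4 kb of the annotated gene (34.1%) had none, so the peaks were concentrated in the low-coordinate part.

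The sixth peak named for Taf4b, of 11000 bp at 14762601 to 14773600, was classed as intergenic and covers none of the gene. It ends 9600 bp before Taf4b and begins 299 bp after the end of Psma8, which encodes a testis-specific proteasome subunit. Psma8 itself had 4 peaks over 79.8% of its length, and the next gene, Ss18, a chromatin remodelling subunit, had 5 over 79.9%. On the other side Kctd1, 8.26 kb away, had none, and the next peak in that direction lay 1689 kb off. For Taf4b 5 of the 6 peaks were annotated to a noncoding transcript model of the gene, and the 3′ UTR peak to a coding one. The second of the wide peaks also spans the pseudogene Gm21055, which is 1853 bp long, and the 3′ UTR peak also overlaps the long noncoding RNA gene 4930543D07Rik.

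Etv5, an ETS transcription factor needed for stem cell self-renewal, had 2 intron peaks over 13% of its 58.3 kb (chromosome 16, 22381313 to 22439570, minus strand). The wider one, of 6600 bp at 22426001 to 22432600, is centred 10.3 kb from the start of the gene and was the 35th widest of 771 on its chromosome. The other, of 1000 bp at 22388601 to 22389600, is centred 50.5 kb from the start, at 86.6% of the gene. Between them 36.4 kb had no peak. The gene stood alone in its surroundings, with the nearest other peaks 136 kb away in Tra2b, a splicing regulator, and 389 kb away in Tbccd1.

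Sox3, an X-linked transcription factor gene of the SRY-related family with a single exon, had 1 exon peak. It runs from 60891351 to 60893650 (2300 bp, 10 bins) and covers the whole gene, 60891366 to 60893430 (2065 bp), with 15 bp below it and 220 bp above it. The edges of the peak therefore lay within 1 bin of the edges of the gene on either side. The next peaks were 68.1 kb away, at an uncharacterised locus with a run of intergenic peaks, and 1396 kb away.

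Among the genes of differentiating spermatogonia, Kit had 3 peaks. It encodes the receptor tyrosine kinase for stem cell factor and runs from 75574987 to 75656722 on chromosome 5 (81.7 kb, plus strand). All 3 were of the intron class, of 4000 bp at 75576601 to 75580600, 2000 bp at 75583801 to 75585800 and 1200 bp at 75595601 to 75596800. Their centres were 3.61, 9.81 and 21.2 kb from the start. The widths thus fell with distance from the start, and all 3 were above the median of 800 bp on chromosome 5. They covered 8.81% of the gene, and the 59.9 kb after the last one (73.3% of the gene) had none. No other gene overlaps them, and the nearest other peaks lay 380 kb away in Pdgfra, the gene of a related receptor, and 588 kb away in Tmem165.

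Esx1, an X-linked homeobox gene of placenta and male germ cells, had 2 peaks that covered 54.6% of its 6735 bp (137115397 to 137122131). The exon peak of 2760 bp at 137118641 to 137121400 holds the start window shown above. From the annotated start at 137120326 it reaches 1074 bp upstream and 1686 bp into the gene. The extent of the gene in the reference table reaches 1805 bp upstream of that start, so the printed sequence lies inside the annotated gene. The intron peak of 920 bp at 137115881 to 137116800 lies near the other end of the gene, and no other gene overlaps either peak. The nearest other peak, 30.8 kb away, was of Fam199x.

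Rhox13, a homeobox gene at one end of the X-linked Rhox cluster, had 2 intron peaks, of 1840 bp at 38123191 to 38125030 and of 920 bp at 38126411 to 38127330, which covered 30.2% of its 9127 bp (38120840 to 38129966, plus strand). Both also lie inside Gm39506, which is annotated on the minus strand from 38121576 to 38158422 and overlaps 91.9% of Rhox13. Within Gm39506 there were 5 peaks over 28.8% of its length, and 3 of them were named for Gm39506. Of these, a peak of 5290 bp at 38129401 to 38134690 still overlaps Rhox13, the next is 1150 bp wide, and the last, of 1610 bp at 38157001 to 38158610, lies outside Rhox13 and reaches over the start of Gm39506 shown above. With peaks over another gene left out, Rhox13 had 0 peaks. Which of the antisense pair of genes gave the Rhox13 peaks cannot be told apart in a list without strand.

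The share of a gene covered by its peaks ran from 8.81% in Kit to 100% in Sox3. It is set here beside that of coding genes with at least 1 peak, as a description, since the members were chosen for having peaks. Kit (8.81%) was near the median of chromosome 5 (10.1% over 497 genes), Taf4b (36.2%) near that of chromosome 18 (34.6% over 193), and Etv5 (13%) above that of chromosome 16 (8.76% over 231). The median on the X chromosome was 36.9% over 469 genes, of which 8 were covered to the same 100% as Sox3, that gene included, 157 as much as Esx1 and 267 as much as Rhox13. Set against genes of the same length decile, Taf4b had fewer peaks (6, against a median of 8) but was covered more (36.2%, against 7.48%). Kit had 3 peaks against a median of 5 and Etv5 had 2 against 3, with coverage near the medians of 10.1% and 14.4%. Esx1 and Rhox13 had 2 each against a median of 1, and Sox3 had 1 against 1.

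**Figure D2:**
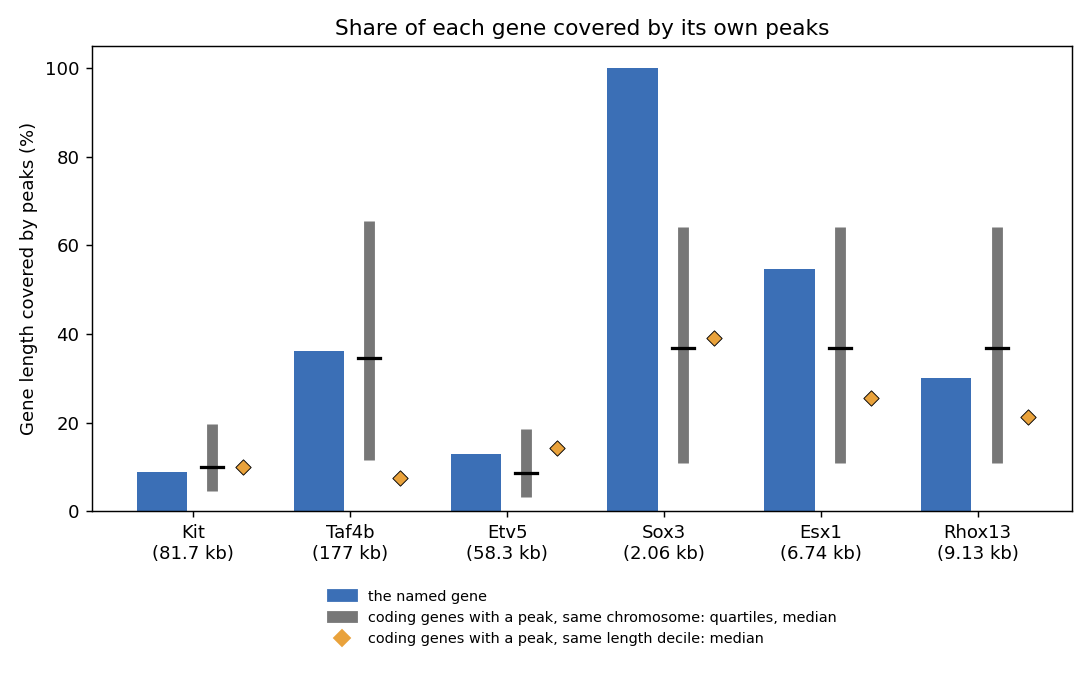
Percentage of each gene's length covered by its own peaks (blue bars, y axis in percent). Grey bars are quartiles, with the median as a black line, of coding genes with a peak on the same chromosome, and diamonds are medians of coding genes with a peak in the same length decile. Sox3, Esx1 and Taf4b stand above both medians, and Kit below both.

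The peaks of a gene were also unlike in width. Of the 16 peaks 11 were at or above the median width of their chromosome: all 3 of Kit, 4 of Taf4b, and 1 each of Etv5, Sox3, Esx1 and Rhox13. The running numbers that the authors gave the peaks skip values within 3 of the genes. Between the first and the last peak 3 numbers are missing in Kit, 8 in Taf4b and 1 in Etv5, and none in Sox3, Esx1 or Rhox13. Such gaps are not particular to these genes: an Esx1 peak is numbered 63050 in a list of 16331 peaks. Numbers missing before the first or after the last peak of a gene are not counted here. What the missing numbers held is not given, so the counts of any of the 6 genes may be counts of a part of their peaks.

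**Figure D3:**
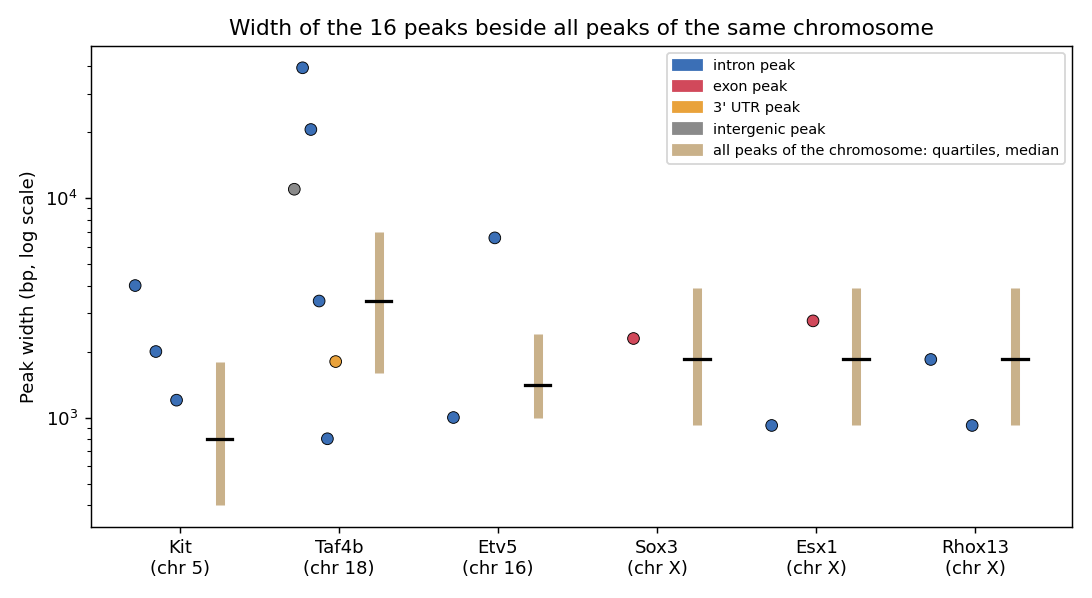
Width of each of the 16 peaks (points, bp on a log axis, coloured by class) beside the quartiles and median of all peaks on the same chromosome (tan bars and black lines). The 3 widest points, at 39400, 20600 and 11000 bp, all belong to Taf4b.

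Peaks were uneven around the 6 genes. Of the 3 nearest coding genes on each side 17 of 36 had a peak (47.2%), from 2 of 6 around Taf4b and Rhox13 to 4 of 6 around Esx1. Over all 14867 coding genes on chromosomes with a peak 18.8% had one, and 35.7% of 7352 did on the well covered chromosomes, defined as those with a peak in 10% or more of their coding genes. All 6 genes lie on these. By chromosome the share was 39.2% on chromosome 5, 37.8% on 18, 34.0% on 16 and 48.6% on X. The 47.2% of the neighbours lies within this range. Around Kit the neighbours were Chic2 with 3 peaks, Pdgfra with 1 and Tmem165 with 1. Around Etv5 they were Senp2, a SUMO protease, with 3, Tra2b with 2 and Tbccd1 with 2. Near Sox3 on the X chromosome, Gm715 and Gm7073 had 20 and 3 peaks that lay outside them. Near Esx1, Fam199x had 10, Slc25a53 had 8, Nrk had 10 and Zcchc18 had 1. Beside Rhox13 the neighbours Rhox10, Rhox11 and Rhox12 had none, and Zbtb33 and Tmem255a on the other side had 1 and 3.

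By number of peaks, length and share covered, the gene most like Kit was Smim14 (3 peaks over 8.64% of 90.3 kb, among 115 genes with the same number of peaks and a length within 2-fold). For Taf4b it was Kansl1l, with 6 peaks over 33.8% of a gene of 98.4 kb, among 28. Naa60 was nearest to Etv5 (12.7%), AA414768 to Sox3 (100%), Hmx1 to Esx1 (55.8%) and Capn10 to Rhox13 (30.3%). This likeness rests on 1 peak list.

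The pathways around the 6 genes were described from lists of genes, chosen with earlier results of these data known, so a count is no independent support. On chromosomes with a peak, 3 of 15 genes of undifferentiated spermatogonia had one (20%, Wilson 95% interval 7.05% to 45.2%), against 18.8% of all coding genes there. These were Taf4b, Etv5 and Sox3. Of the 12 without a peak, 8 lie on the other, thinly covered chromosomes, among them Gfra1, the GDNF co-receptor. The other 4 are Nanos3, Foxc2, Neurog3 and Cdh1. Differentiating spermatogonia genes had a peak in 3 of 8 (37.5%, 13.7% to 69.4%), namely Kit, Esx1 and Rhox13, and the 5 without one, Dmrt1, Dmrtb1, Dnmt3b, Sohlh1 and Uhrf1, all lie on thinly covered chromosomes. The interval covers counting error only. The 7 and 4 further genes of these lists on chromosomes with no peak in the list, such as Ret, Zbtb16 and Stra8, were not analysed here.

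Genes that signal with KIT had a peak in 9 of 17 (52.9%, 31.0% to 73.8%). The receptor's ligand Kitl had 6 intron peaks over 10.1% of its length, and Kit had the 3 given above. The downstream kinase gene Akt1 had 4 peaks over 23.5%. The phosphatase gene Ptpn11 had 10 peaks, 3 of them in the 3′ UTR, and the RAS exchange factor gene Sos2 had 6. A further 3 had 1 peak each. On the well covered chromosomes the count was 9 of 10 (90.0%, 59.6% to 98.2%), against 35.7% of coding genes there, and the 1 without, named after its values were seen, was Pik3r2. The libraries' expression levels are unknown, and their part in these counts was not tested.

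For GDNF and FGF signalling, 4 of 14 genes had a peak (28.6%, 11.7% to 54.6%), an interval that holds the 18.8% of all coding genes. Besides Etv5 they included the SRC family kinases Fyn and Yes1, with 4 peaks each. In the retinoic acid pathway 1 of 9 had one (11.1%, 1.99% to 43.5%, against the same 18.8%). This was Rdh10, a retinol dehydrogenase, with 2 intron peaks over 63.8% of its length. Of the 8 genes of this pathway without a peak 7 lie on the thinly covered chromosomes, among them Rara and Rarg.

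The Rhox cluster held few peaks. A peak was named for 2 of its 33 coding genes (6.06%, 1.68% to 19.6%), against 48.6% of 966 coding genes on the X chromosome. Besides Rhox13 this was Rhox2h, whose single peak was classed outside the gene and covers none of it. Between that peak and the first of Rhox13 439530 bp held no peak. The X chromosome share is over genes of all lengths, and most Rhox genes are short. In the length decile of 4.35 to 7.71 kb 155 coding genes had a peak, against 509 in that of 59.4 to 112 kb. The deciles are of about equal size. They were cut over all 14867 coding genes on chromosomes with a peak, not over the X chromosome alone. The part of gene length in the Rhox count was not tested. Many Rhox genes are near-identical copies, reads of which may not be placed uniquely, and how such reads were treated is not given in the sources used here.

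Among cell type markers, peaks were named for 7 of 8 germ cell markers (87.5%, 52.9% to 97.8%), against 18.8% of all coding genes. There were 38 in Tex11, 20 in Sycp2, 16 in Boll, 14 in Mael, 4 in Piwil1 and 1 each in Sycp3 and another gene. Dazl, on thinly covered chromosome 17, had none. Several of these markers were known to have peaks when the list was made, so this count is no check of the labelled cells. Markers of somatic testis cells had a peak in 3 of 25 (12%, 4.17% to 30.0%), against 18.8% of all coding genes. These were Kitl with 6, Myh11 with 1 and Wt1 with 1, and there were none in the 3 Leydig cell, 5 macrophage and 4 endothelial markers. Of the 25, 12 lie on thinly covered chromosomes. On the well covered chromosomes 2 of 13 had a peak (15.4%, 4.33% to 42.2%), against 35.7% of coding genes there. Both intervals hold the share of all coding genes beside them, so a lack of peaks in somatic markers is not shown. The number of cells of a type and the RNA per cell cannot be told apart in pooled cells. Their part in these counts, and that of gene length, was not tested. Nor was the part of somatic cells in the peaks of the 6 genes.

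**Figure D4:**
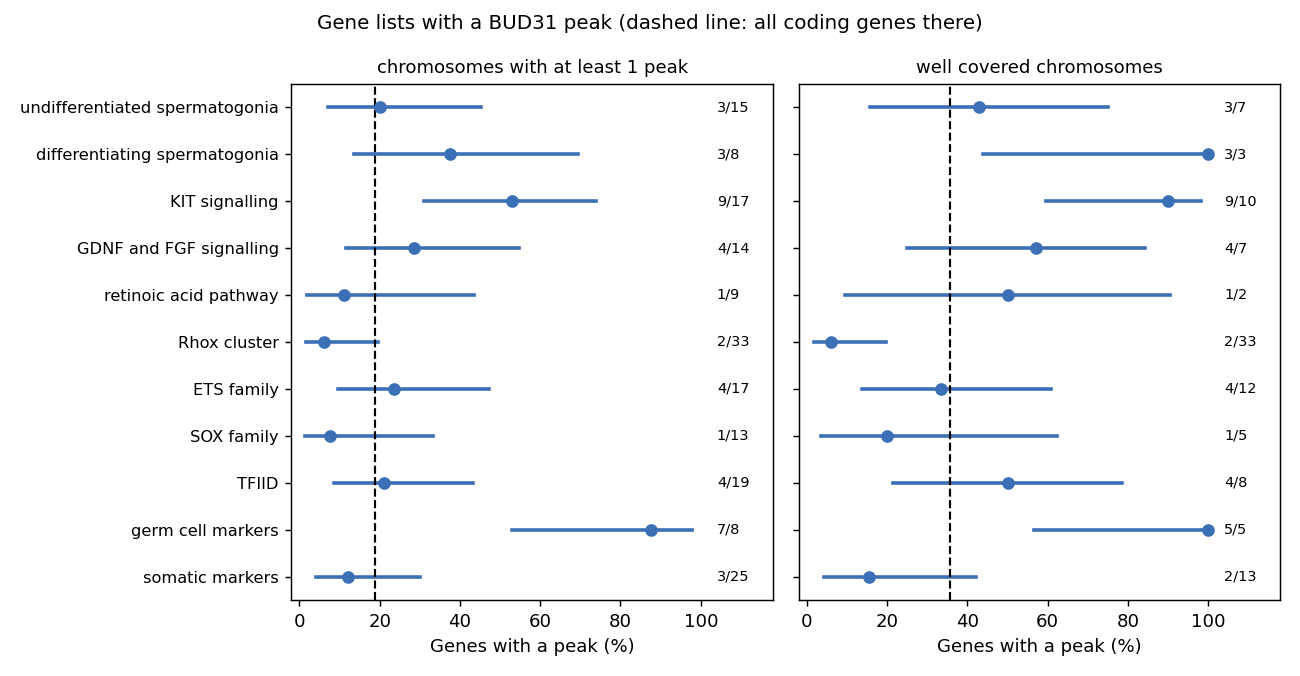
Share of each gene list with at least 1 peak (points, x axis in percent) with its Wilson 95% interval (lines) and counts at the right, on all chromosomes with a peak (left) and on the well covered ones (right). Dashed lines mark all coding genes there, at 18.8% and 35.7%. In both panels the points of both spermatogonia lists and of the KIT, GDNF and FGF, TFIID and germ cell lists lie to the right of the line. Those of the Rhox cluster, the SOX family and the somatic markers lie to the left in both. The retinoic acid and ETS lists change side. Every gene with a peak in either spermatogonia list is one of the 6, which were chosen for having peaks. The place of these points against the line therefore follows from that choice and is no support. Some of the 6 also count in the KIT, GDNF and FGF, TFIID, ETS, SOX and Rhox lists.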

How the data were processed

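RIP-seq of BUD31 was read as 1 annotated list of peaks deposited by the authors, made from 1 antibody and 1 input library, which were grouped by their titles. Per the submitters' processing notes reads were aligned with TopHat2 2.0.13 to mm10. The caller, its threshold, the annotation release and the use of the input were not given in the sources used here. Per the file headers the deposited columns are positions in bp, a class, a transcript, a gene and its kind. No depth is given.

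Genes were matched by number to a RefSeq table (GRCm38.p6); all 6 matched. Covered length is the union of a gene's named peaks inside its extent, checked on 500 intervals with known answers. Shares have Wilson 95% intervals. Values near each gene are over coding genes on chromosomes with a peak. The members and gene lists were chosen with earlier results of these data known. Genes named are the 6, members of lists with a peak (up to 6 by number of peaks) or without one where 4 or fewer, neighbours with a peak (3 a side), and the gene most like each; some genes that this rule would name are not reported here, and others are said to be chosen after their values were seen or stand as examples. Alternatives changed which peaks count, by class, overlap, width or other genes. Peaks carry no score, so width stood in for a stricter threshold. The analysis ran in Python 3.11.15 with pandas 2.3.3, scipy 1.17.1 and numpy 2.4.6.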

Additional observations from a re-analysis of the deposited data

How the results depend on the processing

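No paired analysis was possible because each group has 1 library and no result comes from a test. The total of 16 peaks stayed within 1.5 times under all 6 alternatives. Of 36 recounts of peaks per gene 32 did so too, and of 36 recomputed coverages 34 stayed within the Wilson 95% interval of the reported share, taken over the bins of the gene. A peak is a run of bins, which are not independent, so this interval is only a yardstick and measures no spread. It is wide in short genes: with wide peaks only, Esx1 fell from 54.6% to 41.0% and Rhox13 from 30.2% to 20.2% and both stayed within it. With only peaks at or above the median width of their chromosome, Etv5, Esx1 and Rhox13 kept 1 peak each. Without peaks over another gene, an alternative added after seeing the data, Rhox13 had 0 peaks over 0% of its length and Taf4b was covered to 23.6%, since its peaks over Gm21055 and 4930543D07Rik drop out. The whole Taf4b peak of 20600 bp drops out, although Gm21055 spans 1853 bp of it. Of 68 recounts of list members 64 stayed within 1.5 times. The Sertoli cell list fell to 1 gene with wide peaks only and to 1 on the well covered chromosomes. The Rhox cluster fell to 1 with peaks classed in the gene. By construction these settings cannot raise a count. By overlap the Rhox cluster also fell to 1, since the Rhox2h peak covers none of that gene. The overlap setting can also raise a count: the ETS and TFIID lists each went from 4 to 5. Positions come in steps of a bin, 200 or 230 bp on the chromosomes of the 6 genes, and unknown depth leaves a missing peak without a meaning for expression.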

Other observations

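Relatives of the 6 genes by protein family were looked up in the same way. Of 17 ETS family genes 4 had a peak (23.5%, 9.56% to 47.3%, against 18.8% of all coding genes): Elf4 with 5 peaks over 63.1% of its length, Elk4 with 3, Etv5 with 2 and Elk1 with 1 that covers the whole gene. Etv1 and Etv4, the closest relatives of Etv5, had none, and Etv4 lies on chromosome 11, where 1 of 1609 coding genes had one. Of 13 SOX genes Sox3 alone had a peak (7.69%, 1.37% to 33.3%), and 8 of the other 12 lie on chromosomes where under 10% of coding genes had one.

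TFIID genes had a peak in 4 of 19 (21.1%, 8.51% to 43.3%), close to the 18.8% of all coding genes. Besides Taf4b these were 3 genes on the X chromosome, where 48.6% of coding genes had one: Taf1, the largest subunit, with 14 peaks over 81.2% of its length, Taf7l, a germ cell paralog of Taf7, with 4 over 50.5%, and Taf9b with 1 over 75.7%. Taf4, the paralog of Taf4b, had none and lies on chromosome 2, where 5.78% of coding genes had one. Of the type III receptor tyrosine kinases Kit had 3 peaks and Pdgfra had 1 in its 3′ UTR, and Pdgfrb, Csf1r and Flt3 had none.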
